A study of Mus musculus with 5 samples.

Results

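The gene set comprised 52 cell adhesion genes of the synapse and the axon, out of 14715 genes measured cell by cell in the spiral ganglion of the mouse. It holds every symbol in the matrix made of Nrxn, Nlgn, Cntn, Cntnap, Lrrtm, Lrfn, Slitrk, Flrt, Tenm, Mdga, Igsf or Cadm followed by a number, with at most 1 letter after it. No measured value entered this choice. The 12 families contributed 2 to 7 genes each, from Mdga1 and Mdga2 to 7 Cntnap and 7 Igsf genes.

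Spiral ganglion neurons carry sound signals from the hair cells of the cochlea to the brainstem. Cochleae were taken from mice of both sexes at postnatal days 30 to 33, neurons carrying the tdTomato reporter were enriched by sorting, and RNA was counted with the droplet 3′ assay of 10x Genomics, per the labels. The 2 control samples had the genotype bhlhb5-Cre/+; Ai14/+, and the 3 CKO samples had bhlhb5-Cre/+; Ai14/+; Runx1F/F. All 5 samples thus carried the Cre transgene, named for the neural transcription factor gene bhlhb5, and the Ai14 allele that gives tdTomato after Cre acts. The floxed Runx1 allele was present in the CKO samples only, and no sample received another treatment. Runx1 is a transcription factor, and the labels place its ablation in the embryo. Whether a sample held 1 animal or several is not given in the sources used here.

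RNA molecules were told apart by unique molecular identifiers (UMIs), and a level is the mean number of UMIs of a gene per 10000 UMIs of a cell. UMIs are counted once per molecule at the 3′ end, so levels were not divided by gene length. The 1070 control neurons held 40734464 UMIs (median per neuron 38085), and the 884 CKO neurons held 37482099 (median 44120.5). The files name the genotype of a cell and not its sample. Each genotype is therefore 1 pool, no test between genotypes was possible, and all intervals below are exact 95% intervals for counting error only. Along the columns the alphabetical order of the barcodes starts anew several times, which gives 5 stretches of 157 to 588 cells, with CKO cells in stretches 1, 3 and 4 and control cells in stretches 2 and 5. No source used here ties a stretch to a sample, so the stretches are given as values and not as replicates. Stretches 3 and 5 shared 1 barcode, and no other pair shared any.

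CKO stretch 4, the smallest, stood apart from the other CKO stretches. Type Ia neurons made up 12.1% of its cells, against 47.0% and 53.2% of stretches 1 and 3, while the control stretches 2 and 5 had 10.8% and 32.3%. Runx1 RNA in type Ia averaged 2.04 and 1.47 in stretches 1 and 3, 0.0816 in stretch 4, and 0.271 and 0.209 in the control stretches. Over all neurons the Runx1 level was 1.23 in control and 1.68 in CKO, and because the deleted stretch of the gene is not given in the sources used here, 3′ counts do not check the deletion. Its cells are labelled CKO, but whether that label and the deletion hold in stretch 4 was not tested, and every pooled CKO value mixes it with stretches 1 and 3. Results for single genes that rest on stretch 4 are given with and without it. Counts that use the CKO pool, and the shares of all genes beside them, include stretch 4 unless stated.

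Each neuron was placed in a class by 3 marker genes, in order. Neurons with Dupd1 at 1 or more were type II, then those with Lypd1 at 3 or more were type Ic, then those with Calb2 at 150 or more were type Ia, and the rest were type Ib. Type I neurons are the myelinated cells that contact inner hair cells, and type II neurons are the thin fibres that contact outer hair cells. Control held 242 Ia, 395 Ib, 314 Ic and 119 type II neurons, and CKO held 384, 216, 132 and 152. In type II neurons the marker Th was at 5.09 in control and 3.98 in CKO and Prph at 2.83 and 0.838, while the listed marker Smad3 was at 0 in control type II. Plk5 and Ngfr, also listed for type II, were highest there in both pools. Rxrg and Pcdh20, listed for type Ia, were also high in type II, at 0.565 and 2.25 in control. B3gat1, also listed for Ia, was 2.02, 0.693, 0.0820 and 0.0163 in control Ia, Ib, Ic and type II. In CKO B3gat1 was 2.11, 1.48, 1.04 and 0.0310 in the same order. Pou4f1 and Grm8, listed for Ic, were highest there in both pools, at 1.17 and 0.817 in control and 1.03 and 0.892 in CKO. Runx1, also listed for Ic, was 1.73 and 1.84 in control Ib and Ic and 2.36 and 2.51 in CKO. Calb1, a type Ib marker, was highest in Ib of the control pool at 1.31 but reached 1.90, 2.56 and 1.46 in Ia, Ib and Ic of the CKO pool. The other listed Ib genes were highest in Ib in both pools. Ttn was 1.27 in control Ib and 0.792 in CKO Ib, and at most 0.209 in any other class, and Lrrc52 was 0.0749 and 0.0436, and at most 0.0221 elsewhere. By the rule used here, Ib held the neurons left after the other thresholds, and 54 control and 119 CKO neurons lay within 80% to 120% of the Calb2 threshold. All 9 listed glial genes were present, with a summed level of 0 to 249.7 per cell in control (median 25.5) and 0 to 805.9 in CKO (median 18.8). The share of neurons with 5 or more glial UMIs per 10000 was 61.2% in control and 55.8% in CKO. Of the other listed cell types, 0 of 2 endothelial and 0 of 2 erythrocyte genes were in the matrix, and the macrophage gene Csf1r averaged 0.00498 in control and 0.00331 in CKO, all of it in type II. Of 4 fibroblast genes 3 were present, led by the collagen gene Col1a2 at 0.862 in control and 0.850 in CKO, and at 0.737 to 0.948 in every class. Of 3 hair cell genes 2 were present, and Myo7a was 0.254 in control and 0.299 in CKO type II and at most 0.0167 in a type I class. The part of RNA from such cells in the members' levels was not tested.

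Neurexins are receptors on the presynaptic membrane that bind neuroligins, LRRTM proteins and other partners on the facing cell. MDGA proteins bind neuroligins on the same membrane and keep them from neurexins. Slitrk and Lrfn proteins carry leucine-rich repeats and bind receptor tyrosine phosphatases, whereas teneurins and FLRT proteins bind latrophilins. Contactins pair with Cntnap proteins along myelinated axons, where Cntn1 and Cntnap1 form the paranodal junction with glia and Cntn2 and Cntnap2 the juxtaparanode. Cadm proteins, also called SynCAMs, join cells across synapses and between axons and Schwann cells. In the ear a spiral ganglion neuron has its postsynaptic side at the hair cell and its presynaptic side in the cochlear nucleus, and RNA counted in the cell body does not say to which side a protein goes.

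Runx proteins bind DNA with the core TGTGGT. The upstream windows of the members that hold this core in the families Mdga and Cadm are shown as description only. Whether Runx1 binds them, or whether the core bears on any level, was not tested. RefSeq windows on GRCm38.p6 were matched by symbol for 38 of 52 members. The windows below are the 250 bases before the transcription start, 5′ to 3′ on the gene's strand, with the core (TGTGGT, or ACCACA where it reads on the opposite strand) in capitals. All 3 genes lie on the minus strand, at chr12:67222550-67222799 for Mdga2, chr16:67620909-67621158 for Cadm2 and chr1:173367696-173367945 for Cadm3.
Mdga2: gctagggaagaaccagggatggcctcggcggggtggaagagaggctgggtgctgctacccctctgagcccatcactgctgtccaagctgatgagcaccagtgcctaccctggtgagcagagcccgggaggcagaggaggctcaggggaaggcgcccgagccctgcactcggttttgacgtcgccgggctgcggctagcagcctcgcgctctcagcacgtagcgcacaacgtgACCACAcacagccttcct
Cadm2: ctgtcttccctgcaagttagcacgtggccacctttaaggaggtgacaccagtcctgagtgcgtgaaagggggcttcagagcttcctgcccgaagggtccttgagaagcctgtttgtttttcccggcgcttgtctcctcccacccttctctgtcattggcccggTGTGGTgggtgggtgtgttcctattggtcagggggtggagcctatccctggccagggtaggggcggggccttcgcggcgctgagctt
Cadm3: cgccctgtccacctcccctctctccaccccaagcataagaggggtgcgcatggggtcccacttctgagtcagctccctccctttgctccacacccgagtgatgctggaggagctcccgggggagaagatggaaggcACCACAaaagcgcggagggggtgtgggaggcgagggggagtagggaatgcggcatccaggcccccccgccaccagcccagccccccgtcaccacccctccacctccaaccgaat
The Mdga2 and Cadm2 windows overlap no gene in GENCODE M21, and the Cadm3 window lies in an intron of Aim2, a gene on the opposite strand. The core starts 18 bases before the start site in Mdga2, 87 in Cadm2 and 114 in Cadm3. Slitrk3 and Flrt2 also held it, at 200 and 135 bases before the start. Thus 5 of 38 members (13.2%) held the core on either strand, against 12.5% of 11051 genes of the matrix and 15.9% of 27025 genes of the table. The letters were not present in the window of Mdga1, the member at 0.5 or more that was 1.5-fold apart between genotypes in Ib and Ic. That window, at chr17:29887883-29888132, falls entirely in a noncoding exon of a longer annotated Mdga1 transcript.

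Of the 52 members, 29 reached a level of 0.2 in some class of either genotype and 17 reached 0.5 over all neurons of either genotype. Mdga1 had the highest level, 6.01 in control and 7.85 in CKO. Members above 1.5 in both pools also included Cadm1 (2.21 and 1.62), Cntn1 (2.17 and 2.19) and Nrxn2 (2.10 and 1.86). Differences between genotypes were written as log2((CKO + 0.1)/(control + 0.1)), and a gene was counted as apart at 1.5-fold. Over all neurons, 0 of 17 members at 0.5 or more were 1.5-fold higher in CKO and 0 of 17 were lower, beside 0.476% of all 3781 genes each way. The median log2 value was −0.12 for the members, of which 6 were above 0 and 11 below, and −0.02 for all genes. With the CKO class means weighted by the class shares of control, 0 of 16 members were apart either way (0.58% of all genes higher and 0.185% lower), with a median of −0.14. Within classes the counts were 0 of 12 in Ia (0.443% of all genes higher, 0.305% lower) and 0 of 19 in type II (0.577% and 0.315%). In Ib and in Ic, 1 of 16 members was higher, Mdga1 in both, and 0 of 16 were lower (0.868% higher and 0.473% lower in Ib, 0.859% and 0.39% in Ic).

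**Figure D1:**
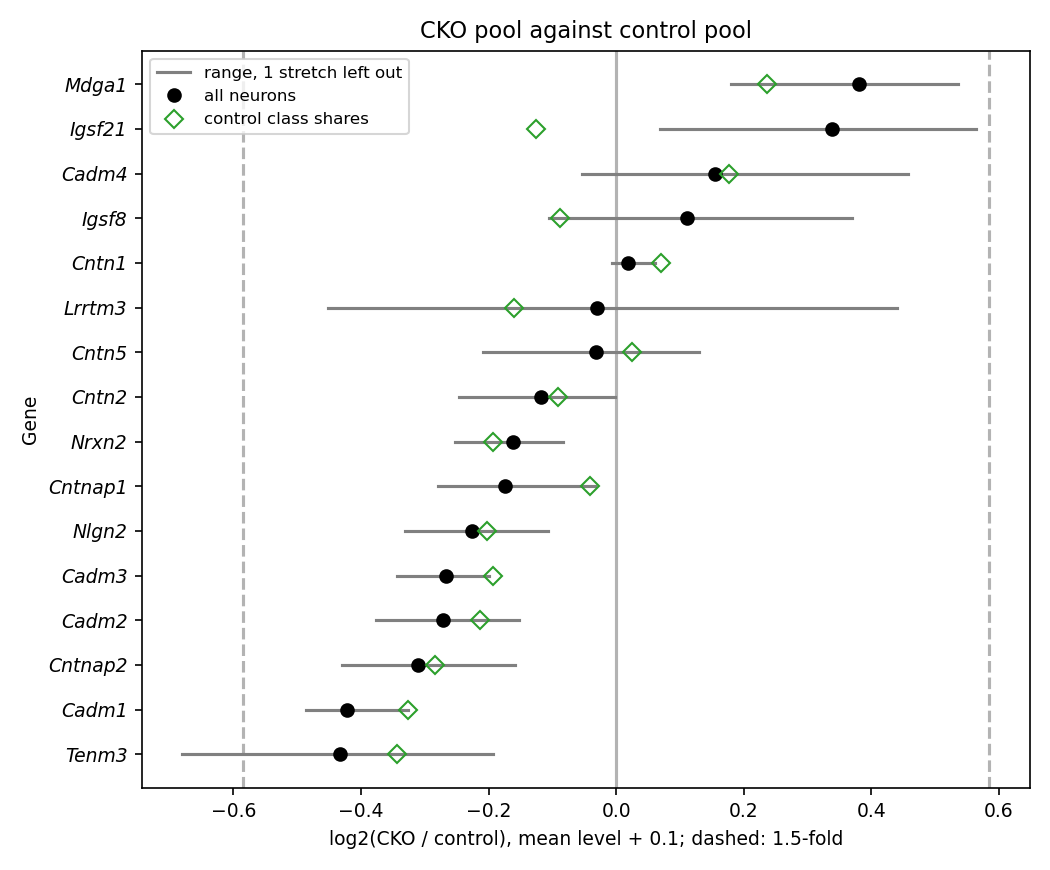
Log2 ratio of CKO to control for members at 0.5 or more, as black points for all neurons and open diamonds at control class shares, with a grey line for the range when each column stretch was left out in turn; dashed lines mark 1.5-fold. Mdga1 is at 0.38 and Tenm3 at −0.43, and every point lies inside the dashed lines.

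Of 21 members at 0.5 or more in a control class, 10 differed at least 2-fold between their highest and lowest class (30.3% of all genes did). They were Igsf21, Igsf8, Igsf1, Lrrtm3, Flrt3, Mdga1, Cadm3, Tenm3, Cadm1 and Cntnap1. All 10 also differed at least 2-fold between classes in CKO, with the same highest class, and the highest class matched in 20 of the 21. Type II was the highest class for 12 of the 21 in control. Shares of all genes were not computed for the highest class or for keeping it in CKO, so these counts describe the members alone. Type II neurons had fewer UMIs, with a median of 25326 in control against 37312 to 48726 in the type I classes.

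**Figure D2:**
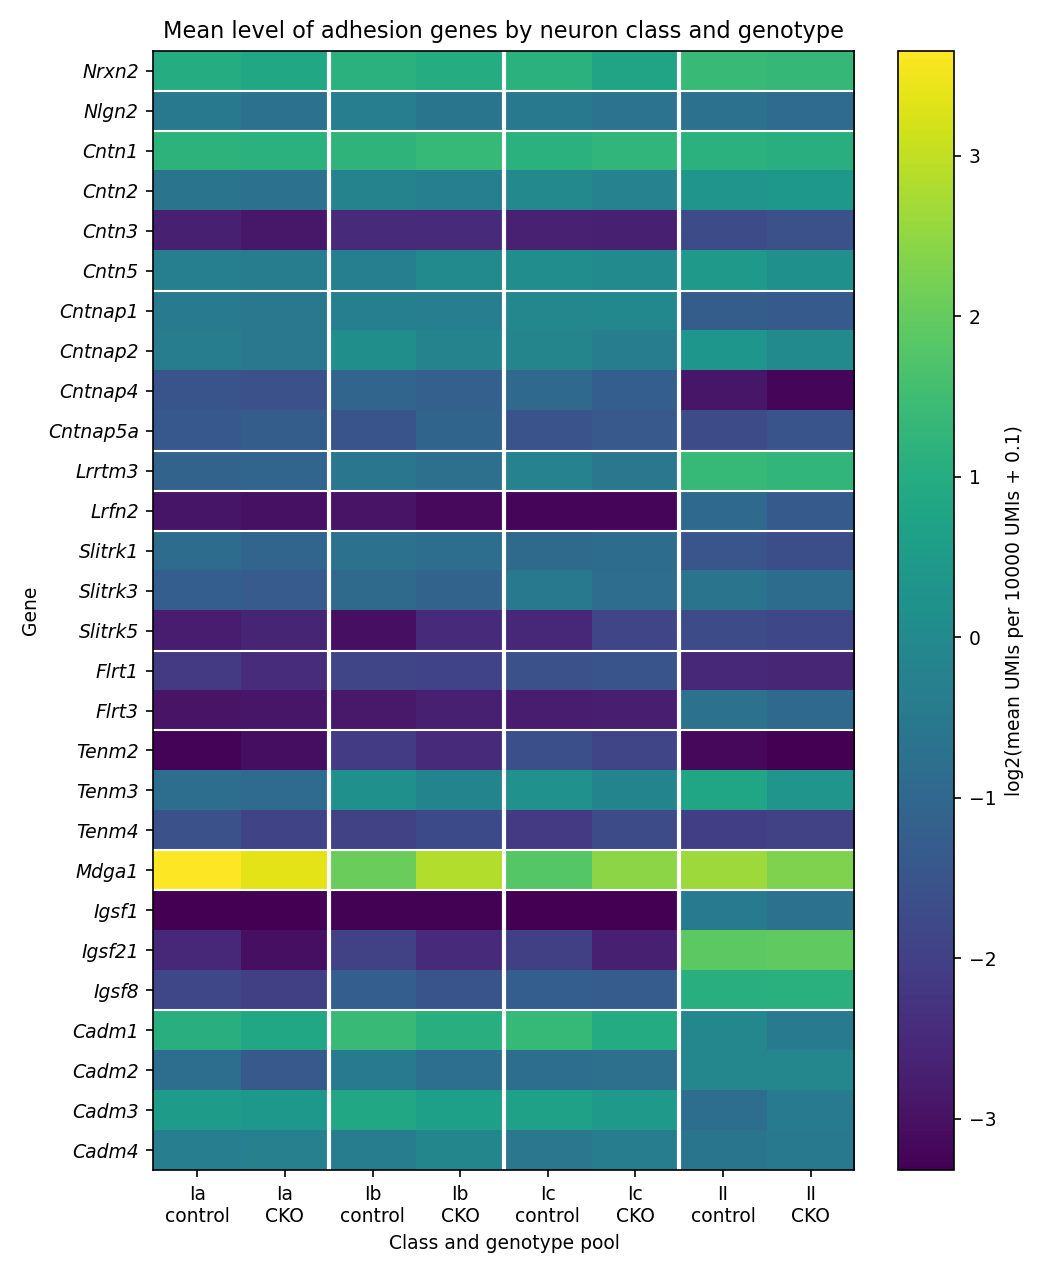
Level of members that reached 0.2 in a class, as log2(mean UMIs per 10000 UMIs + 0.1), with genes in rows by family and the 4 classes of each genotype pool in columns. Mdga1 is brightest in type Ia, and Igsf21, Igsf8, Igsf1, Lrrtm3 and Flrt3 are bright in type II and dark in the type I classes.

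Mdga1 (chr17:29827949-29970087, minus strand, GENCODE M21 on GRCm38) was, among members at 0.5 or more, the one most unequal between type I classes. Its control levels were 12.5 in Ia, 4.06 in Ib, 3.42 in Ic and 6.10 in type II, so Ia was the highest class and Ic the lowest. In CKO they were 10.3, 7.18, 5.38 and 4.85, in the same order for the type I classes but closer together. The CKO level was higher in Ib and Ic, with log2 values of 0.81 and 0.64, and lower in Ia and type II, at −0.28 and −0.33. The ratio of summed UMI rates was 1.80 (1.73 to 1.86) in Ib, 1.67 (1.59 to 1.75) in Ic, 0.829 (0.811 to 0.847) in Ia and 0.797 (0.748 to 0.849) in type II. After thinning every cell to 10000 UMIs, 95.9% of control and 98.0% of CKO neurons held at least 1 Mdga1 UMI.

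The higher Mdga1 level in Ib and Ic was seen in CKO stretches 1 and 3 and not in stretch 4. In Ib, its level was 9.15 and 8.5 in those stretches, 2.77 in CKO stretch 4, and 3.79 and 4.27 in control stretches 2 and 5. In Ic the values were 7.57 and 8.03, 2.18, and 3.80 and 2.86 in the same order. Stretch 4 thus lay below both control stretches in Ib and Ic, while stretches 1 and 3 lay above both. Without stretch 4 the log2 values were 1.10 in Ib and 1.16 in Ic, and stretch 4 alone gave −0.54 and −0.62. Without stretch 1 they were 0.55 in Ib and 0.27 in Ic, both under 1.5-fold, and without stretch 3 the value in Ic was 0.44. Leaving out control stretch 5 gave 0.49 in Ic.

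Levels of Mdga1 in type Ia and type II were ordered otherwise. In Ia, CKO stretches 1, 3 and 4 stood at 9.11, 11.3 and 10.1, and control stretches 2 and 5 at 16.6 and 11.4. The log2 value in Ia was −0.15 without control stretch 2 and −0.68, past 1.5-fold, without control stretch 5. In type II, the CKO stretches were at 4.78, 5.09 and 4.28 and the control stretches at 6.37 and 5.70. All 3 CKO stretches were thus below both control stretches in these classes. Across single control neurons, the 10th percentile, median and 90th percentile were 7.86, 11.8 and 19.0 in Ia and 1.80, 3.23 and 6.37 in Ib. In CKO neurons they were 6.95, 10.1 and 13.8 in Ia and 1.63, 5.69 and 14.9 in Ib, so the Ib percentiles of CKO lay on both sides of those of control. Without stretch 4 those of CKO Ib were 2.06, 8.61 and 16.0, and in stretch 4 alone they were 1.34, 2.67 and 4.10.

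**Figure D3:**
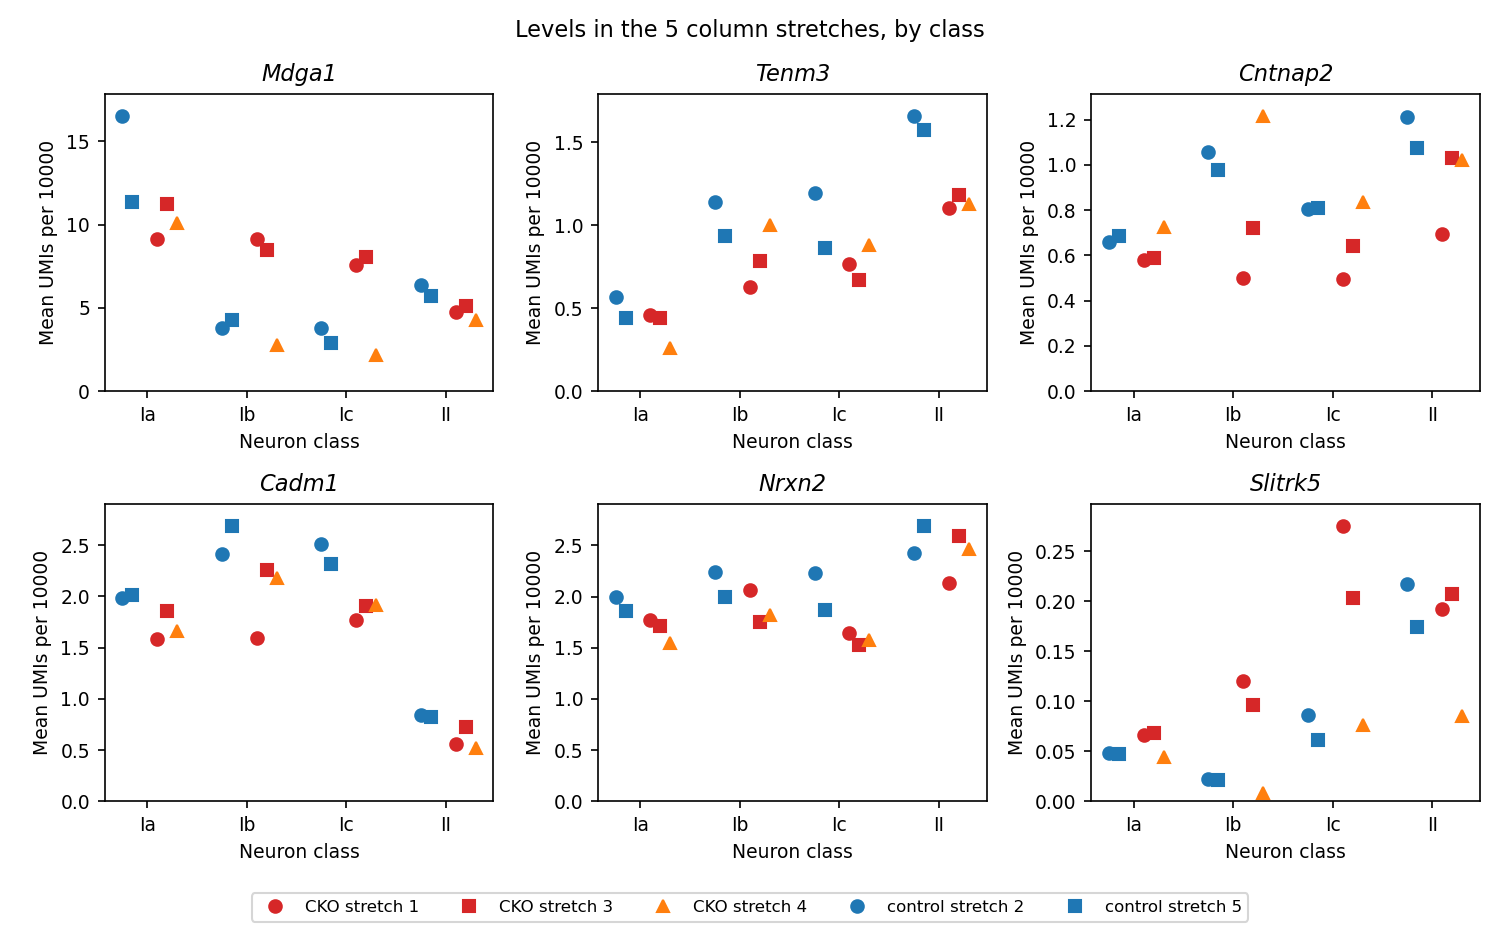
Mean level in each of the 5 column stretches, by class, for Mdga1, Tenm3, Cntnap2, Cadm1, Nrxn2 and Slitrk5; control stretches are blue, CKO stretches 1 and 3 red and CKO stretch 4 orange. For Mdga1 in Ib and Ic the red points are at 7.57 to 9.15 and the blue and orange points at 2.18 to 4.27.

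Since Ia and Ib are divided by Calb2, Mdga1 was also read against the Calb2 level of the neuron over both classes. In control, Mdga1 was 3.45 at Calb2 under 50, 4.09 at 50 to 100, 6.10 at 100 to 150, 13.3 at 150 to 200 and 12.3 above 200. In CKO stretches 1 and 3 it was 4.30, 9.20, 9.98, 11.0 and 10.0 over the same ranges. The control level thus stepped up at the Calb2 threshold of 150, whereas the 2 CKO stretches were already near their highest level at 50 to 100. CKO stretch 4 gave 3.03, 2.40 and 1.83 in the lower 3 ranges and 9.31 and 10.2 in the upper 2, from 3 to 39 cells each. The Ib neurons of CKO held more Calb2 than those of control, with medians of 85.1 and 54.1, and the part of Calb2 in the Mdga1 difference was not tested. Among neurons with under 5 glial UMIs per 10000, Mdga1 was 4.91 in control and 7.57 in CKO Ib, and 3.78 and 5.90 in Ic.

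**Figure D4:**
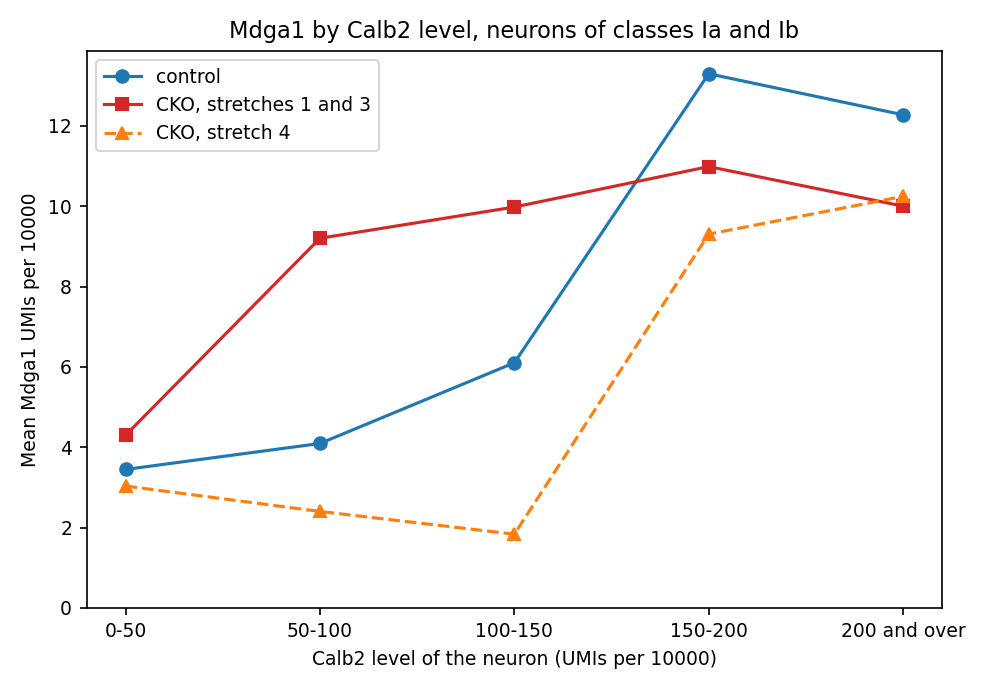
Mean Mdga1 level of Ia and Ib neurons in 5 ranges of their Calb2 level, for the control pool, for CKO stretches 1 and 3 together and for CKO stretch 4. Control rises from 6.10 to 13.3 between the ranges 100 to 150 and 150 to 200, and CKO stretches 1 and 3 stand at 9.20 to 11.0 in all ranges above 50.

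Among the neurexins, receptors of the presynaptic membrane, Nrxn2 was 1.88, 2.11, 2.08 and 2.53 in control and 1.73, 1.89, 1.59 and 2.40 in CKO. Over all neurons Nrxn2 was at 1.88, 1.87 and 1.79 in the CKO stretches and 2.24 and 1.98 in the control stretches, with a log2 value of −0.16. Nrxn3 was low, 0.0954, 0.0480 and 0.00936 in control Ia, Ib and Ic, and 0.101, 0.0974 and 0.0190 in CKO. No Nrxn3 UMI was found in type II, in 0 of 119 control and 0 of 152 CKO neurons, where 3 counts would have been 2.52% and 1.97% of the cells. In control Ia, 8.26% of neurons held an Nrxn3 UMI after thinning (exact interval 5.12% to 12.5%), and 30.6% without thinning.

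Among the neuroligins, the partners of neurexins, Nlgn2 alone passed 0.5. Its control levels were 0.604, 0.688, 0.601 and 0.503 from Ia to type II, and its CKO levels were 0.522, 0.558, 0.530 and 0.439. Over all neurons Nlgn2 was 0.439, 0.577 and 0.557 in CKO stretches 1, 3 and 4, below both control stretches at 0.642 and 0.608, with a ratio of UMI rates of 0.808 (0.761 to 0.857). Nlgn1 averaged 0.0864 in control and 0.10 in CKO, and Nlgn3 0.0380 and 0.0321.

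The leucine-rich repeat proteins held a member of type II. Lrrtm3, a postsynaptic ligand of neurexins, was 0.370, 0.562, 0.757 and 2.47 in control Ia, Ib, Ic and type II and 0.381, 0.493, 0.575 and 2.32 in CKO. Its UMI rate in control type II was 4.63 (4.25 to 5.03) times that of type I. In type II its values by stretch were 1.90, 2.79 and 1.90 in CKO and 2.28 and 2.76 in control, so the genotypes overlapped. Between the control stretches Lrrtm3 differed in every type I class, with 0.651 and 0.294 in Ia, 0.819 and 0.361 in Ib and 1.0 and 0.407 in Ic for stretches 2 and 5. These gaps are larger than those between the genotype means. Flrt3, a ligand of latrophilins, was 0.524 in control and 0.419 in CKO type II and at most 0.0529 in any type I class. Lrfn2 showed the same order at a lower level, 0.423 and 0.291 in type II and at most 0.0307 in type I.

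Slitrk1 ran the other way, with 0.455, 0.524, 0.437 and 0.259 in control Ia, Ib, Ic and type II and 0.388, 0.471, 0.448 and 0.219 in CKO. Slitrk3, the member of its family with the highest control mean, was 0.322, 0.428, 0.610 and 0.548 in control and 0.299, 0.368, 0.460 and 0.452 in CKO, lowest in Ia in both pools. Flrt1 was highest in Ic, at 0.235 in control and 0.252 in CKO, and lowest in type II, at 0.0731 and 0.0680. Lrfn4, the highest of the Lrfn genes by its control mean, reached only 0.150 in control and 0.122 in CKO, with 0.176 in control Ib as its highest class level.

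The 3 members that stood highest in type II against type I were immunoglobulin proteins of the Igsf group. Igsf21, a ligand of neurexins at inhibitory presynapses, was 3.60 in control and 3.75 in CKO type II, and 0.0752, 0.155 and 0.149 in control Ia, Ib and Ic. Its UMI rate in control type II was 29.3 (26.2 to 32.7) times that of type I. After thinning, 98.3% of control type II neurons held an Igsf21 UMI, against 6.2% of Ia, 12.9% of Ib and 12.1% of Ic. Igsf8, a partner of tetraspanins, was 0.183, 0.322, 0.327 and 2.0 in control and 0.151, 0.249, 0.306 and 2.05 in CKO. By stretch, Igsf8 in type II was 1.33, 2.47 and 2.61 in CKO and 1.95 and 2.08 in control. Igsf1 was 0.621 in control and 0.508 in CKO type II, and no more than 0.00334 in a type I class of either pool. Igsf1 UMIs were found after thinning in 44.5% of control type II neurons (35.4% to 53.9%) and in 0 of 314 control Ic neurons, where 3 counts would have been 0.955% of the cells.

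Over all neurons Igsf21 had a log2 value of 0.34, but at control class shares it was −0.13. The pools differ in type II neurons, which were 11.1% of control (9.30% to 13.2%) and 17.2% of CKO (14.8% to 19.8%). Igsf8 changed sign in the same way, from 0.11 to −0.09. Without stretch 4 the values over all neurons were 0.40 for Igsf21 and 0.01 for Igsf8, and stretch 4 alone gave 0.01 and 0.49. In a pool of cells, a larger share of type II neurons and more RNA per type II neuron both raise such a mean. For these genes the level within type II was 0.06 and 0.04 apart on the log2 scale. Within type II the log2 values were 0.11 and −0.03 without stretch 4, and −0.25 and 0.37 in stretch 4 alone. The part of class shares in the pooled values was not tested.

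Counted over the set, 5 of 20 members were at least 2-fold higher in control type II than in type I (12.2% of all genes), namely Flrt3, Igsf1, Igsf21, Igsf8 and Lrrtm3. A further 3 of 20 were at least 2-fold lower (12.9% of all genes), namely Cadm1, Cadm3 and Cntnap1. In CKO the counts were 4 of 18 higher (12.2%), all but Flrt3, whose level of 0.419 in type II was under the threshold of 0.5, and 1 of 18 lower (12.9%), Cadm1. Cadm3 and Cntnap1 were at −0.89 and −0.96 on the log2 scale in CKO, short of 2-fold. The median log2 difference of type II from type I was 0.43 over the 20 control members and 0.02 over all genes.

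**Figure D5:**
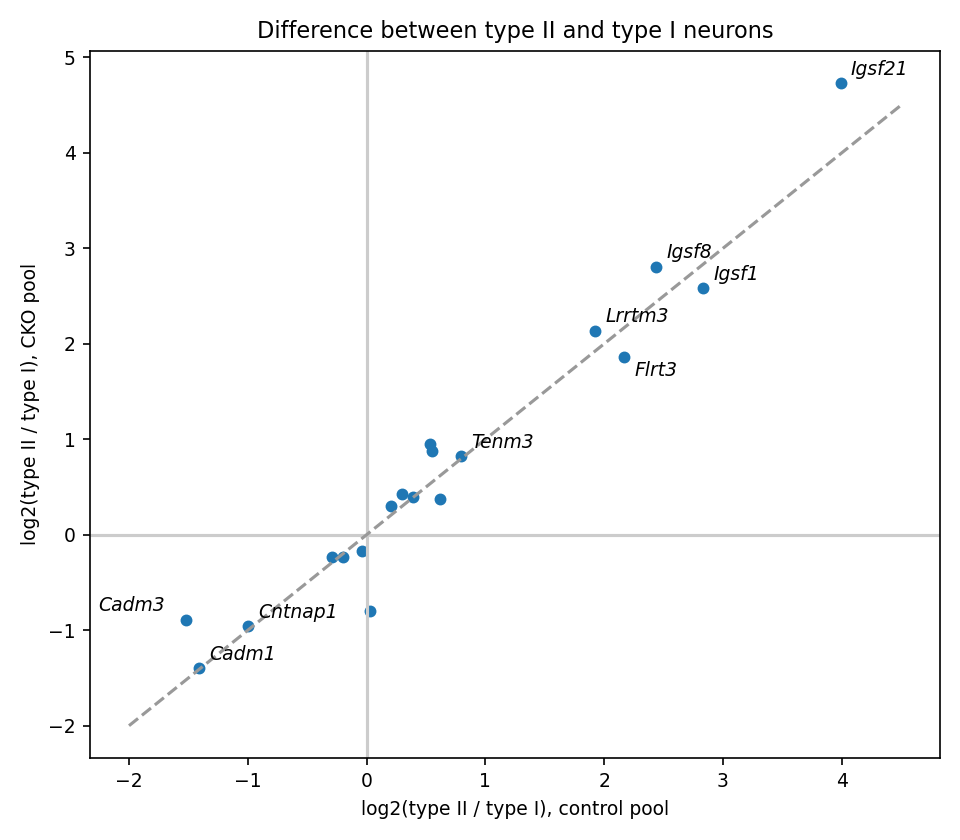
Log2 ratio of type II to type I, control on the horizontal axis and CKO on the vertical axis, for members at 0.5 or more in control; the dashed line marks equal values. Igsf21 is at 3.99 and 4.73, and Cadm1 at −1.41 and −1.40.

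Teneurins, large proteins that bind latrophilins and each other, were led by Tenm3. Its control levels were 0.469, 1.03, 1.06 and 1.62 in Ia, Ib, Ic and type II, and its CKO levels were 0.438, 0.783, 0.794 and 1.14. Tenm3 had the lowest log2 value of the 17 members over all neurons, −0.43, with a ratio of UMI rates of 0.712 (0.676 to 0.75). In type II it was 1.10, 1.18 and 1.13 in the CKO stretches and 1.66 and 1.57 in the control stretches, which did not overlap. In Ib, Tenm3 stood at 0.626 in CKO stretch 1, 0.781 in stretch 3 and 1.0 in stretch 4, and at 1.14 and 0.936 in control, so stretch 4 lay between the control stretches. In the Calb2 range of 50 to 100, Tenm3 was 1.07 in control, 0.732 in CKO stretches 1 and 3 and 0.920 in stretch 4. Without control stretch 5 the log2 value over all neurons was −0.68, past 1.5-fold, and without control stretch 2 it was −0.19.

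The other teneurins differed in where they were found. Tenm2 was 0.131 and 0.227 in control Ib and Ic and 0.00470 and 0.0112 in Ia and type II. Tenm1 gave 13 UMIs in control and 23 in CKO, all of them in type II neurons. Tenm4 was 0.230, 0.158, 0.130 and 0.143 in control Ia, Ib, Ic and type II, and 0.169, 0.194, 0.208 and 0.154 in CKO. Its control stretches 2 and 5 were far apart, with 0.0726 and 0.225 in Ib and 0.0695 and 0.216 in Ic, against 0.184, 0.232 and 0.160 in Ib and 0.219, 0.257 and 0.173 in Ic of CKO stretches 1, 3 and 4. The Tenm4 means of Ib and Ic were therefore higher in CKO only with control stretch 2 included.

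Among contactins, Cntn1 was nearly even over classes and genotypes, with 2.20, 2.22, 2.09 and 2.11 in control and 2.09, 2.47, 2.30 and 1.98 in CKO. Cntn2 increased from Ia to type II, with 0.548, 0.764, 0.873 and 1.14 in control and 0.517, 0.708, 0.753 and 1.22 in CKO. Cntn5 was 0.712, 0.706, 0.963 and 1.27 in control and 0.674, 0.899, 0.893 and 1.04 in CKO. Cntn3 was 0.0809 in control and 0.0837 in CKO, with type II highest at 0.204 and 0.233.

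Cntnap1, the paranodal partner of Cntn1, was 0.654, 0.706, 0.846 and 0.319 in control Ia, Ib, Ic and type II and 0.590, 0.688, 0.852 and 0.294 in CKO. Its UMI rate in control type II was 0.427 (0.345 to 0.524) of that in type I, whereas the rate of Cntn1 was 0.962 (0.886 to 1.04). Type II fibres are known to be unmyelinated, and whether this bears on the Cntnap1 level was not tested. Cntnap2, the juxtaparanodal partner of Cntn2, was 0.681, 1.01, 0.808 and 1.16 in control and 0.591, 0.772, 0.671 and 0.902 in CKO, with a log2 value of −0.31 over all neurons. In Ib it was 0.498 and 0.721 in CKO stretches 1 and 3, 1.22 in stretch 4, and 1.06 and 0.980 in the control stretches. Without stretch 4 the log2 value in Ib was −0.66, past 1.5-fold, and stretch 4 alone gave 0.24. Cntnap4 was 0.385 and 0.419 in control Ib and Ic and 0.0353 in type II. Cntnap5a was 0.252 in control and 0.315 in CKO, and because Cntnap5a, Cntnap5b and Cntnap5c are closely related genes, how reads were split among them is uncertain.

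In the Cadm family, Cadm1, Cadm2 and Cadm3 had lower means in CKO and Cadm4 a higher mean. Cadm1 was 2.01, 2.57, 2.43 and 0.833 in control Ia, Ib, Ic and type II and 1.73, 1.99, 1.86 and 0.632 in CKO, with log2 values of −0.20, −0.36, −0.37 and −0.35. Over all neurons the CKO stretches were at 1.45, 1.73 and 1.78 and the control stretches at 2.17 and 2.24, and the ratio of UMI rates was 0.738 (0.714 to 0.762). In each of the 4 classes all 3 CKO stretches lay below both control stretches. In Ib they were 1.59, 2.26 and 2.18 against 2.42 and 2.69, and in type II 0.564, 0.725 and 0.516 against 0.843 and 0.819. The difference stayed under 1.5-fold, with a log2 value of −0.42 over all neurons and −0.33 at control class shares.

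Cadm3 was 1.36, 1.72, 1.49 and 0.475 in control Ia, Ib, Ic and type II and 1.22, 1.42, 1.25 and 0.647 in CKO, so it was lower in the type I classes of CKO and higher in type II. In type II the 5 stretches gave 0.604, 0.660 and 0.716 in CKO and 0.345 and 0.674 in control, which overlapped. Cadm2 was 0.476 in control and 0.285 in CKO Ia, where the log2 value of −0.58 was just short of 1.5-fold. Its stretches in Ia were 0.293 and 0.263, then 0.452 in stretch 4, and 0.496 and 0.471 in control. Without stretch 4 the Cadm2 log2 value in Ia was −0.61. Cadm4, which myelinating glia also use to hold axons, was 0.633 in control and 0.716 in CKO. Over all neurons the 3 CKO stretches gave Cadm4 at 0.777, 0.678 and 0.670, while control stretch 2 was at 0.494 and stretch 5 at 0.747, so the genotypes overlapped. Its log2 value of 0.16 was −0.05 without control stretch 2 and 0.46 without control stretch 5. It was 0.450 and 0.701 in control type II neurons poor and rich in glial RNA, 0.613 and 0.731 in Ia and 0.539 and 0.596 in Ic. In control Ib the order was reversed, at 0.696 and 0.646. In CKO, neurons rich in glial RNA were lower in Ia and Ic and higher in Ib and type II. The part of glial RNA in the Cadm4 level was not tested.

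Over all neurons, 4 of 17 members had all 3 CKO stretches below both control stretches (13.5% of all genes did), namely Cadm1, Cadm3, Nlgn2 and Nrxn2, and 0 of 17 had all 3 above (5.9% of all genes). For CKO stretches 1 and 3 alone, 8 of 16 lay below (23.4% of all genes), the same 4 with Cadm2, Cntnap1, Cntnap2 and Tenm3, and 1 of 16 above (12.5% of all genes), Mdga1. With all 3 CKO stretches, the counts below control were 4 of 12 in Ia (8.75% of all genes), 4 of 16 in Ib (16.6%), 2 of 16 in Ic (12.5%) and 5 of 19 in type II (12.6%). Above control there were 0 of 12 in Ia (6.76% of all genes), 4 of 16 in Ib (6.78%), 0 of 16 in Ic (6.4%) and 1 of 19 in type II (8.23%). Cadm4, Cntn1 and Cntn5 were among those in Ib.

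Within type I, 2 of 17 members differed at least 2-fold between the control classes (3.25% of all genes), Mdga1 and Tenm3. Mdga1 UMI rates were 3.79 (3.66 to 3.93) times higher in Ia than in Ic, and those of Tenm3 2.20 (1.98 to 2.44) times higher in Ic than in Ia. In CKO 0 of 15 differed at least 2-fold (2.1% of all genes), a count that pools stretch 4 with stretches 1 and 3. In stretch 4 alone, with 19 Ia cells, Mdga1 was 10.1 in Ia and 2.18 in Ic, and Tenm3 0.263 and 0.881. In stretches 1 and 3 together Mdga1 was 10.3 and 7.74, and Tenm3 0.447 and 0.729. Type Ia was the lowest type I class for 10 of the 17 members in control and 14 in CKO, and the highest for 2 and 1. The matching shares of all genes were not computed, and the CKO counts include stretch 4.

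The remaining 23 members stayed under 0.2 in every class. Their means over all neurons were at most 0.150 in control and 0.122 in CKO, from 5 to 1057 UMIs over both pools. They are Nrxn3, Nlgn1, Nlgn3, Cntn6, Cntnap3, Cntnap5b, Cntnap5c, Lrrtm1, Lrrtm2, Lrrtm4, Lrfn1, Lrfn3, Lrfn4, Lrfn5, Slitrk2, Slitrk4, Flrt2, Tenm1, Mdga2, Igsf3, Igsf9b, Igsf10 and Igsf11. Cntn6 and Cntnap3 had 5 and 17 UMIs in control and 0 in CKO, with intervals of the ratio of UMI rates from 0 to 1.19 and from 0 to 0.263. All 17 Cntnap3 UMIs lay in control stretch 2 and none in stretch 5.

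Of 55 listed binding partners and scaffolds, 47 were in the matrix and 22 reached 0.5 over all neurons. None of the 22 was 1.5-fold apart between genotypes (0.476% of all genes each way), and their median log2 value was −0.15, with 5 above 0 and 17 below. The highest were the calsyntenin Clstn1, at 7.19 in control and 6.52 in CKO, and Adam23, a receptor for Lgi proteins, at 6.72 and 5.97. The latrophilin Adgrl1, the receptor of teneurins and FLRT proteins, was at 2.27 and 1.99, and the receptor phosphatase Ptprf at 2.24 and 1.98. In control type II, 10 of 23 partners were at least 2-fold lower than in type I (12.9% of all genes), among them Ank3, the axonal scaffold, with 0.654 against 2.42, and Lgi2 with 0.0290 against 1.15. A further 2 of 23 were at least 2-fold higher (12.2%), Adgrb1 with 3.52 against 0.766 and L1cam with 1.62 against 0.466. Cbln1, which bridges neurexins to glutamate receptors in the cerebellum, gave 170 UMIs in control and 112 in CKO.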

How the data were processed

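The deposited table holds 14715 genes and 1954 cells, and its values are natural logs of 1 plus the UMIs of a gene scaled to 100000 per cell, which the values themselves show. UMI counts recovered from the deposited natural log values were whole in 100% of cases within a tolerance of 0.01. Cell Ranger, Seurat and mm10 are named in the submitters' processing notes without versions, and how cells and genes were filtered is not given in the sources used here. No cell had fewer than 4003 genes, no gene fewer than 5 cells, and no mitochondrial gene was present. No doublet caller was run, though 2 cells met both the Dupd1 and Lypd1 rules and 1 both the Dupd1 and Calb2 rules. Each genotype was 1 pool, since cells are deposited with a genotype but no sample. Column stretches follow the order of barcodes.

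Levels were averaged over cells, with 0.1 added before log2, a minimum level of 0.5, and folds of 1.5 between genotypes and 2 between classes. Ratios of summed UMIs carry exact conditional Poisson intervals and shares Clopper-Pearson intervals, at 95%. They cover counting error only. Members at 1.5-fold between genotypes, the 12 with the largest class range, the neurexins and the highest of each family were named in full, and the others by family, except 1 member that enters the counts but is not reported here. Outside this rule, Mdga2, Tenm1, Nlgn1, Nlgn3, Igsf10, Cntn6, Cntnap3, Lgi2, Ank3, Adgrb1, L1cam and Cbln1 were given values, and Cadm2, Cadm4, Cntnap4, Slitrk5 and Tenm2 more detail, after their values were seen. The members and lists were chosen with earlier results of these data known. Calculations used Python 3.11.15, numpy 2.4.6, pandas 2.3.3, scipy 1.17.1 and matplotlib 3.10.9. The fold rule was run on simulated Poisson counts around a single control mean per gene. The simulation held no classes, no stretches and no spread between cells beyond counting error and depth. It therefore checks the calculation and not the rule under such differences. Alternatives were another value added before log2, other level filters, pooled UMI rates, glia-poor cells, thinned cells, other class thresholds and leaving out each stretch.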

Additional observations from a re-analysis of the deposited data

How the results depend on the processing

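Over all neurons, 11 of the 17 members kept the sign of their log2 value under all 12 alternatives run for them. The values ranged from 0.18 to 0.54 for Mdga1, −0.68 to −0.19 for Tenm3, −0.49 to −0.33 for Cadm1 and −0.43 to −0.16 for Cntnap2. The other 6 changed sign in at least 1, among them Cadm4, Cntn1, Cntn5, Igsf8 and Lrrtm3. Under the alternatives run, no value past a fold threshold turned to the other direction, but none of them took a stretch alone. In stretch 4 alone Mdga1 was lower than in control, at −0.54 in Ib and −0.62 in Ic. The count of members apart in type Ic, 1 in the main setting, was 4 with no filter on low levels, 0 with thinned cells and 0 with a Lypd1 threshold of 6. In type Ib, also 1, it was 2 in glia-poor cells and 0 with a Calb2 threshold of 100. In type II, 0, it was 1 with thinned cells. The count at least 2-fold between control type I classes, 2, was 1 with 0.5 added before log2, 1 with pooled UMI rates and 1 with a Calb2 threshold of 100. Between all control classes, 10, it was 16 with no filter, since more low members entered. Mdga1 in Ic was 0.57 with thinned cells and 0.55 with a Lypd1 threshold of 6, and in Ib 0.55 with a Calb2 threshold of 100, each under 1.5-fold. For all of these but the unfiltered count, the cause was not tested. Leaving out 1 stretch at a time gave 0 to 2 members apart in Ia, 0 to 3 in Ib, 0 to 1 in Ic and 0 to 1 in type II, 0 to 1 lower over all neurons, a median log2 value of −0.25 to −0.053, and 1 to 2 members at least 2-fold between control type I classes. Shares of all genes were not computed under these alternatives, so the counts describe the members alone. Without thinning, 99.9% of control and 99.9% of CKO neurons held an Mdga1 UMI. No paired analysis was possible because cells carry a genotype and no sample.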

Other observations

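Below the level of 0.5, chosen after their values were seen, several members had stretches 1 and 3 apart from control within a class. The share of all genes below 0.5 with such stretches was not computed. At 0.5 or more, stretches 1 and 3 lay above both control stretches for 13% of all genes in Ib and 14.5% in Ic. They lay below both for 25.5% in Ib and 22% in Ic. Mdga2, the paralog of Mdga1, was 0.131 and 0.150 in Ib of CKO stretches 1 and 3, 0.0578 in CKO stretch 4, and 0.0704 and 0.0771 in the control stretches. In Ic the values were 0.218 and 0.122, 0.0547, and 0.0458 and 0.0378 in the same order. The ratio of CKO to control UMI rates for Mdga2 was 3.27 (2.21 to 4.88) in Ic, from 71 and 44 UMIs. Slitrk5, a leucine-rich repeat protein that binds receptor phosphatases, was 0.121 and 0.0966 in Ib of CKO stretches 1 and 3, 0.00784 in stretch 4, and 0.0219 and 0.0215 in control. In Ic it was 0.275 and 0.203, 0.0764, and 0.0860 and 0.0612.

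Others were lower in the same stretches. Igsf21 in type Ib was 0.0401 and 0.0825 in CKO stretches 1 and 3, 0.124 in stretch 4, and 0.199 and 0.120 in control, and in Ic it was 0.0474 and 0.0201, 0.0751, and 0.164 and 0.128. Tenm2 in Ib was 0.0424 and 0.0596, then 0.162, then 0.149 and 0.117, and Cntnap4 in Ic was 0.199 and 0.230, then 0.485, then 0.424 and 0.410. Nrxn3 over all neurons was 0.116 in CKO stretch 1 and 0.0372 to 0.0456 in the other 4 stretches, so its higher CKO mean rests on stretch 1. Igsf10 gave 184 UMIs in control and 63 in CKO, a ratio of UMI rates of 0.372 (0.275 to 0.498). Over all neurons it was 0.0109 and 0.0117 in CKO stretches 1 and 3, 0.0572 in stretch 4, and 0.0492 and 0.0420 in control, so stretch 4 lay above both control stretches. The CKO mean of Igsf10, 0.0195, was 0.0113 without stretch 4.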
